A study of Mus musculus with 9 samples.

Results

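The 40 genes described here encode the Wnt signalling pathway from ligand to nucleus: 10 Wnt ligands, 3 R-spondins, 9 frizzled receptors, 4 co-receptors, 6 negative regulators, 4 proteins of the β-catenin destruction complex with β-catenin itself, and 4 TCF/LEF transcription factors. They were chosen by name as a pathway, with earlier results of these data known. A gene was measured through the probe sets annotated to it alone, and where there were several, the brightest by its average over the 9 arrays stood for the gene. On this rule 39 of the 40 genes were measured, among 18194 genes in all, and Tcf7 had no probe set of its own in the annotation used here.

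RNA came from osteocyte-enriched shafts of the tibia of CD1 wild type mice aged 16 to 18 weeks, and no group carried a transgene or a deletion. There were 3 arrays from virgin mice, 3 from mice on day 12 of lactation, and 3 from mice killed 7 days after their pups had been removed on day 12 of lactation, called post-lactation. Litters held 8 to 13 pups, and shafts freed of marrow and periosteum were digested with collagenase, trypsin and EDTA before extraction. Groups follow the array titles. The post-lactation arrays are given as virgin in their source field, which contradicts their titles, and femurs appear in place of tibiae once in the extraction protocol. No label says that each array is a separate mouse, so the spread behind each p-value is that of these samples and may be technical. The series asked which genes serve osteocytes in remodelling the matrix around their lacunae.

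In canonical Wnt signalling a secreted Wnt protein joins a frizzled receptor to the co-receptor Lrp5 or Lrp6. This stops the destruction complex, built on Axin and Apc with the kinase Gsk3b, from marking β-catenin for degradation, and β-catenin then enters the nucleus and works with TCF/LEF factors on target genes. R-spondins strengthen the signal by removing the ubiquitin ligases Rnf43 and Znrf3, which otherwise clear frizzled from the cell surface, while Notum inactivates Wnt proteins by taking off their lipid. In bone, Wnt signalling promotes formation by osteoblasts, and osteocytes restrain it through sclerostin, the product of Sost, which binds Lrp5, Lrp6 and Lrp4.

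TCF/LEF factors bind a short core motif, and promoter sequences are shown for the genes of 2 such factors and for Nkd1, which encodes an inhibitor that Wnt signalling can itself induce. The search covered the letters CTTTG with AA, AT, TA or TT after them, on both strands of the 250 bases before each annotated start (RefSeq, GRCm38.p6), and no other motif was searched. RefSeq promoter windows were used for 26 of the 40 genes, with 36 windows. Any member windows on a single chromosome were left out of the search, while the windows of all genes kept that chromosome. The motif was found in 5 of the 36 windows (13.9%), against 14.8% of all 32851 windows, so these promoters held it about as often as promoters at large. Matches lay in the windows of Fzd7, Lef1, Tcf7l2, Wnt11 and Wnt5b. Of the 4 Lef1 windows only that of start 4 held a match, 147 bases before the start on the minus strand, and of the 2 Tcf7l2 windows only that of start 2, 14 bases before it on the plus strand. The windows printed for these 2 genes are those with the match. Their start 1 windows lie upstream, from chr3:131110047 for Lef1 and chr19:55741560 for Tcf7l2, and held none. Each sequence is on the plus strand of the genome and ends at the base before the start, and capitals mark the match; the Nkd1 window held none of these letters.
Nkd1, chr8:88527383-88527632: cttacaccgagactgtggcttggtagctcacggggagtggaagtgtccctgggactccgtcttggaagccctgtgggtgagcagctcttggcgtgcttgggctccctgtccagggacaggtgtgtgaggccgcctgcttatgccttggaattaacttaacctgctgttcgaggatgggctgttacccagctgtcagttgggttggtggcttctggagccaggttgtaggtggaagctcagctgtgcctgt
Lef1, start 4, chr3:131156044-131156293: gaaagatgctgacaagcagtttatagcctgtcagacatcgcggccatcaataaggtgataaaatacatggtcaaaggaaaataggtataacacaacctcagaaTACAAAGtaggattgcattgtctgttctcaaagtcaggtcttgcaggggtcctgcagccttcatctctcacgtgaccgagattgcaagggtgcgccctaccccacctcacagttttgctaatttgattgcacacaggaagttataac
Tcf7l2, start 2, chr19:55895071-55895320: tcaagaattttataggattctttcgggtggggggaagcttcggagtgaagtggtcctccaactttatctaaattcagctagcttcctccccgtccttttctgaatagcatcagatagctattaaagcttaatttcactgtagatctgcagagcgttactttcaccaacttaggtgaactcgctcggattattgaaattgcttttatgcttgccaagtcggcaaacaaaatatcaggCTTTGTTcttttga

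The values are log2 signals. Exactly equal values between arrays placed the 9 arrays in 3 array sets that cross the groups evenly. Virgin 1, lactation 3 and post-lactation 1 form set 1. Set 2 consists of virgin 2, lactation 2 and post-lactation 3. Virgin 3, lactation 1 and post-lactation 2 make up set 3. The sets were not tied alike. Pairs of arrays within sets 2 and 3 had equal values in at least 36.1% of probe sets, and pairs within set 1 in at most 2.72%. Between arrays of different sets the share was at most 0.0044%. Set 1, which holds virgin 1, thus rests on far fewer ties. The sets differed in their array medians, which were 4.32 to 4.34, 4.80 to 4.82 and 4.57 in that order. Each comparison was therefore also read set by set, and fitted with array set as a block, which with all 9 arrays leaves the difference between groups as it is and alters its error. Exactly equal values within a set lower the spread left in the blocked fit. Its errors may thus be too small and its calls too many, which was not tested. With an array left out, the blocked fit also corrects for the set that array belonged to, and the differences then change. What the sets stand for is not given in the sources used here. Of the 18194 genes, 129 were called between post-lactation and lactation (limma, Benjamini-Hochberg adjusted p under 0.05), 32 between post-lactation and virgin, and 0 between lactation and virgin, where 328 had an unadjusted p under 0.05 and 4 (0.022%) were called with the set as a block. A mean below 4.87, the 40th percentile of gene means, is called dim, and a fold against a dim group is given as at least its value against that level.

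Virgin 1 stood apart in these genes. It was the lowest of the 9 arrays in 22 of the 39 measured genes, against 27.6% of all genes, and in 18 after each array's median was subtracted, against 14.6%. After that subtraction virgin 1 lay below the mean of virgin 2 and virgin 3 in 28 of the 39, with a median gap of -0.36, while the median gap over all genes was 0.09. The gap was widest in the TCF/LEF factors, with a median of -0.92 and all 3 measured factors lowest in virgin 1, and in the frizzled receptors, with a median of -0.49 and 6 of 9 lowest there. None of the 6 negative regulators had its lowest value in virgin 1. The 8 osteocyte markers, as the mean log2 signal above the array's median, stood at 3.13 in virgin 1 and at 4.55 to 5.46 in the other 8 arrays, with Fgf23 dim; Sost, their best known gene, was at 8.14 in virgin 1 and between 11.59 and 13.55 elsewhere. Of the 14 cell type marker lists, virgin 1 was the lowest array in 8 (osteocyte, osteoblast, B lymphocyte, macrophage, megakaryocyte, endothelium, chondrocyte and periosteum) and the highest in 1 (neutrophil). The marker lists not given beside a gene below spanned, over the 9 arrays, 5.78 to 6.69 for osteoblasts, 8.31 to 9.24 for neutrophils, 3.20 to 3.99 for macrophages, 4.46 to 6.06 for megakaryocytes, 2.76 to 3.92 for periosteum, 0.08 to 1.11 for cartilage and -0.58 to -0.26 for skeletal muscle, the last a list with 3 of 5 genes dim. The part of cell content in the low values of virgin 1 was not tested, and in tissue RNA fewer cells of a type and less RNA per cell cannot be told apart. Where leaving out this array turned the direction of a difference from virgin described below, both values are given; those without it come from the blocked fit too, since dropping virgin 1 alone leaves the virgin group with no array of set 1, the set with the lowest medians.

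**Figure D1:**
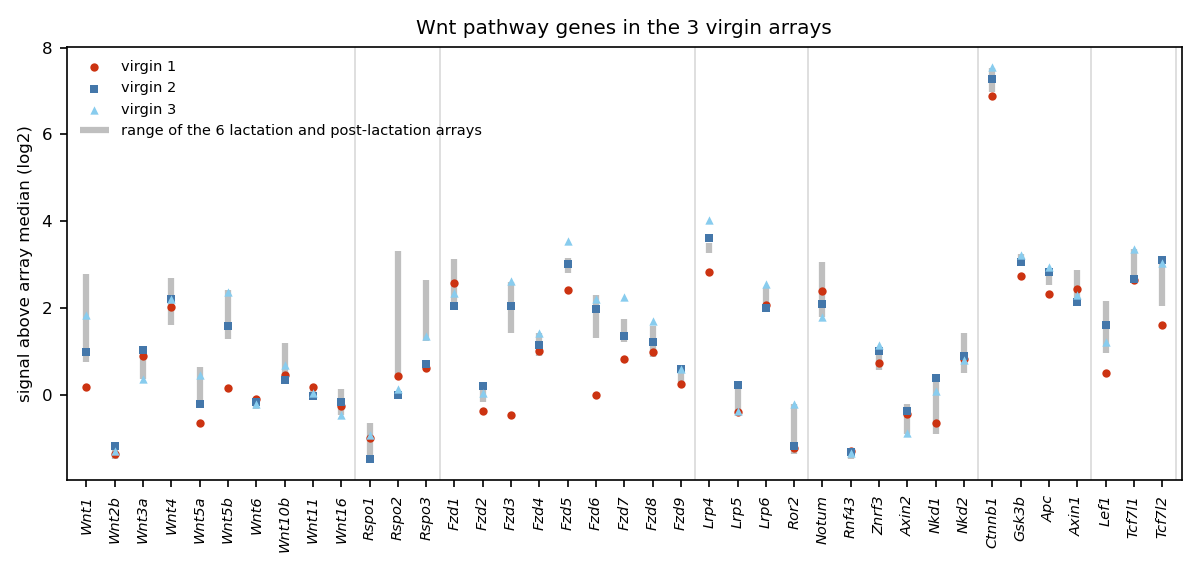
Signal above the array's own median (log2) for the 39 measured genes in the 3 virgin arrays, ordered by role along the horizontal axis; grey bars span the 6 lactation and post-lactation arrays. Virgin 1 is the lowest of all 9 arrays in 18 of the 39 genes, 6 of them frizzled receptors and 3 of them TCF/LEF factors.

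Many of the genes were dim. All group means lay below 4.87 for 12 of the 39, namely Lrp5, Axin2, Nkd1, Rspo1, Wnt2b, Wnt5a, Wnt6, Wnt11, Wnt16, Fzd2, Rnf43 and Ror2, as they did for 7022 of all 18194 genes. Within sets 2 and 3, 71 of the 234 pairs of values were exactly equal, and for Wnt6, Fzd2, Rnf43 and Ror2 all 6 pairs were. Such a tie gives a difference of exactly 0 within its set, not between group means. For Wnt6, Fzd2, Rnf43 and Ror2 any difference between group means therefore came from set 1 alone.

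**Figure D2:**
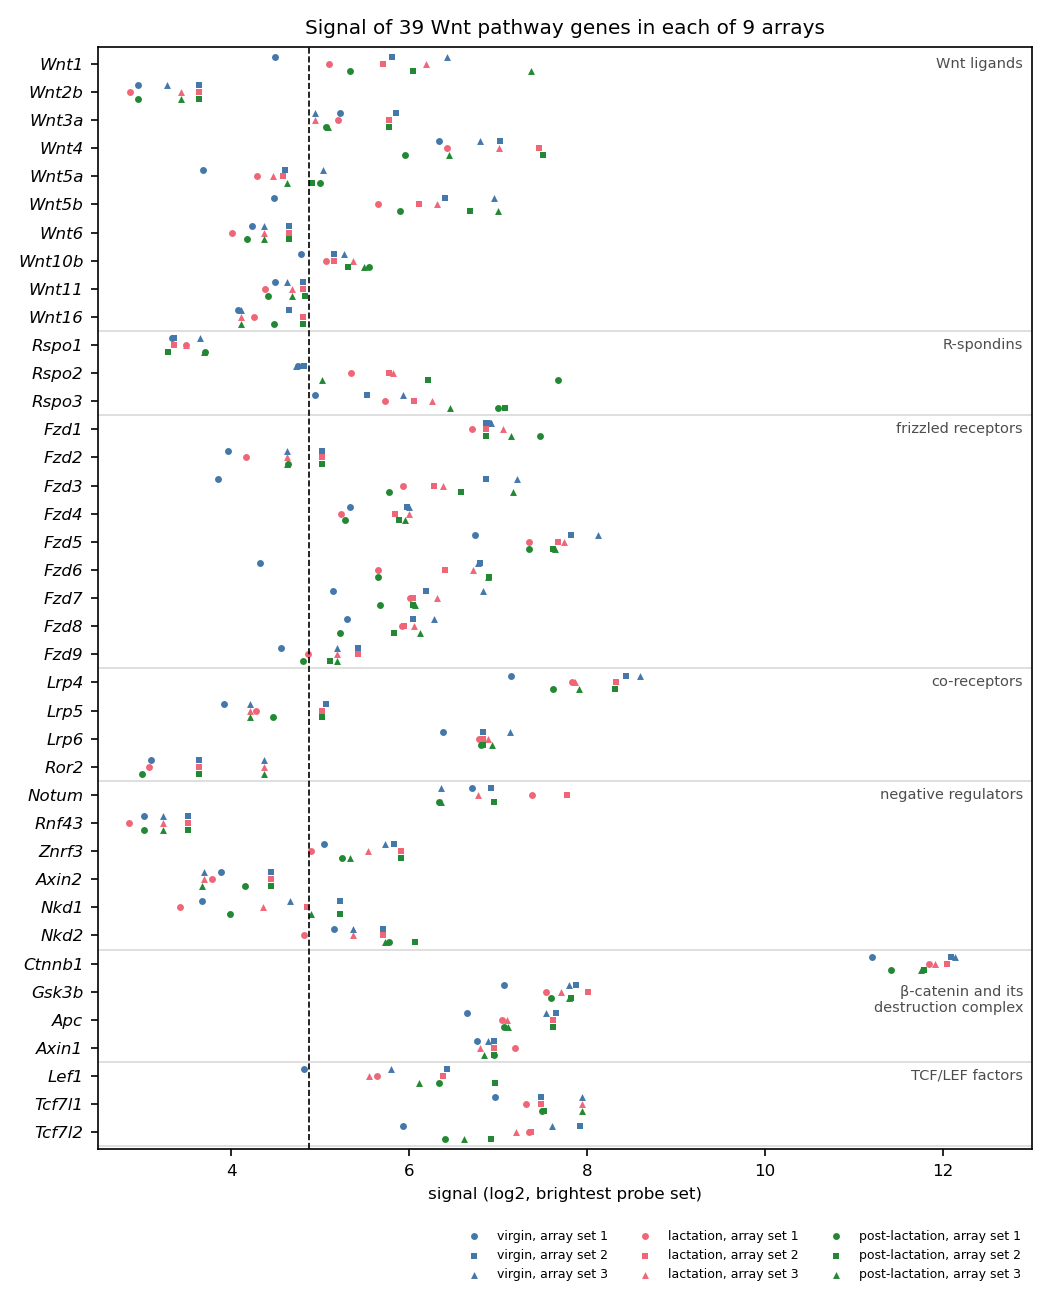
Log2 signal of the brightest probe set of each of the 39 genes in every array, grouped by role; colours give the group, symbols the array set, and the dashed line the dim level of 4.87. For most genes the 3 groups overlap, and 12 genes have every group mean below the line.

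No member of the pathway was called in any of the 3 comparisons by the fit without a block. Between lactation and virgin 25 of 39 were higher and 14 lower, with a median difference of 0.07, beside 52.1% higher and a median of 0.01 over all genes. Without virgin 1 only 6 of 39 were higher and the median was -0.17 (all genes, 5895 of 18194 higher and a median of -0.08). With the block as well, 9 of 39 were higher, the median was -0.067 (all genes, 0.00), and 20 of the 39 differed in sign from the fit of all 9 arrays. Among all 18194 genes, 9213 were higher in that blocked fit and 5123 differed in sign. The median was 0.35 in set 1, 0.00 in set 2 and -0.01 in set 3, so the excess of higher values in lactation rested on set 1. All 3 sets gave a higher value in lactation for 4 members (10.4% of all genes) and a lower one for 1 (6.11%). Between post-lactation and lactation, where virgin arrays have no part in the difference, 27 were higher and 12 lower, with a median of 0.06 beside 50% higher and a median of 0.00 over all genes. The groups did not overlap in 3 members that were higher (3.26% of all genes) and 2 that were lower (4.38%). Here 0.709% of all genes were called without the block and 3.53% with it, against 0 and 2 of the 39. Between post-lactation and virgin 23 were higher and 15 lower, with a median of 0.07, beside 50.6% higher among all genes. This median was -0.11 without virgin 1 (all genes, -0.09) and 0.03 without it in the blocked fit, so its sign depended on the block. The groups did not overlap in 4 members that were higher (1.17% of all genes) and 0 that were lower (1.49%), and all 3 sets agreed in 8 higher members (5.91%) and 2 lower ones (8.15%). In that comparison 0.176% of all genes were called, and 0.451% with the block. At an unadjusted p under 0.05, 1 member passed between lactation and virgin and 2 in each of the other comparisons. Over all 18194 genes these counts were 328, 921 and 381, in the order lactation versus virgin, post-lactation versus lactation and post-lactation versus virgin. With the block 2, 6 and 6 members passed, beside 1457, 2740 and 1476 of all genes. The adjusted p with the block called no member between lactation and virgin or between post-lactation and virgin.

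**Figure D3:**
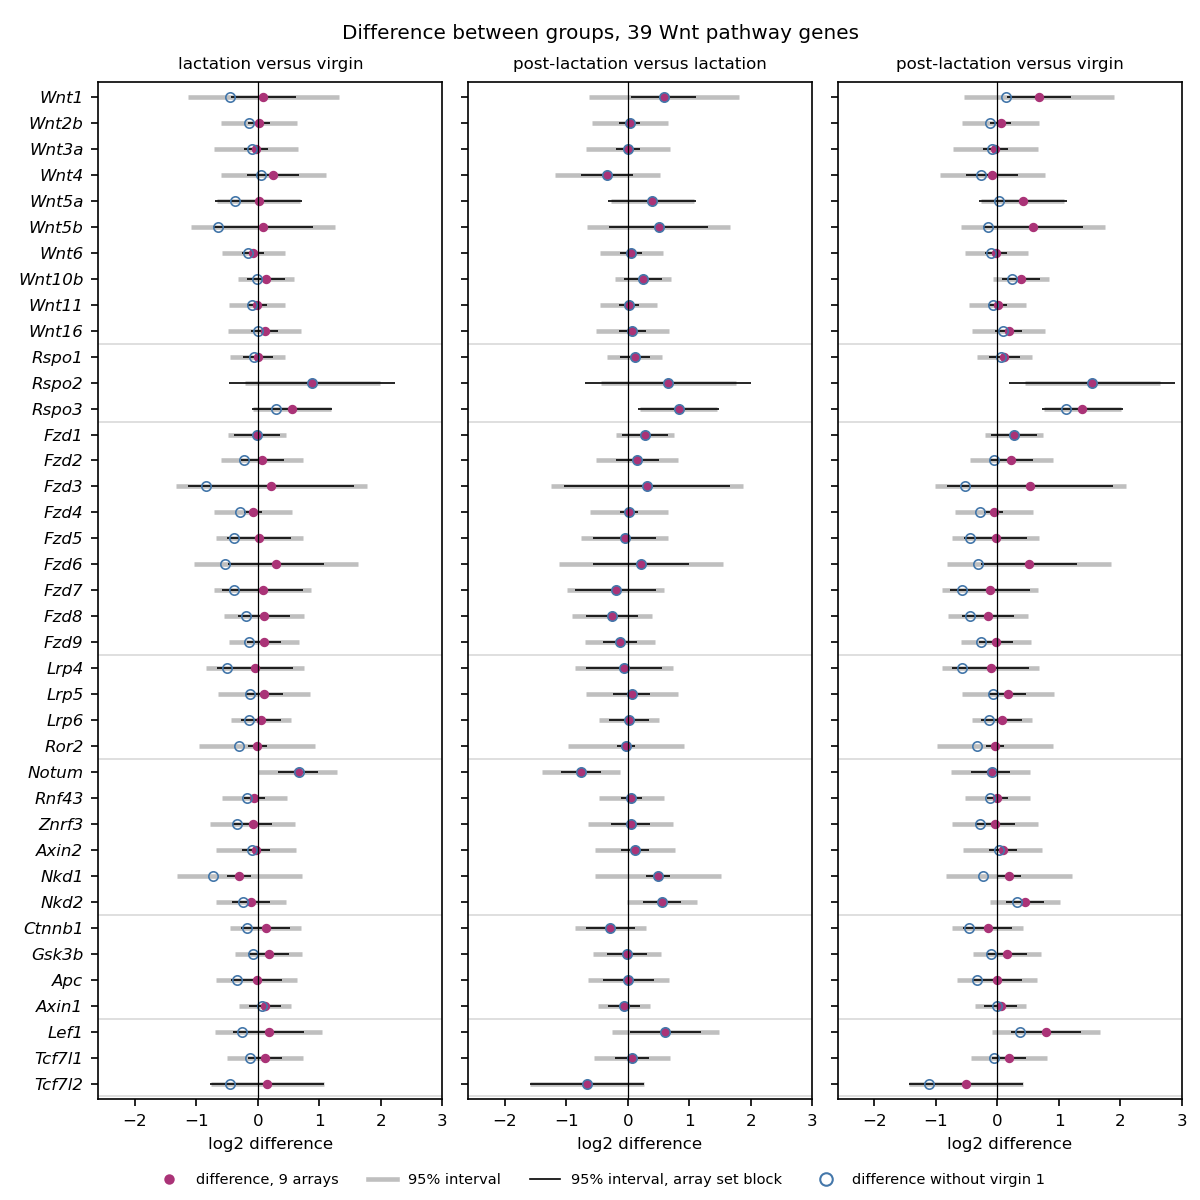
Log2 difference between groups for the 39 genes (filled points), with 95% intervals of the fit without a block (grey) or, in black, with array set blocked. Open circles leave out virgin 1 in the fit without a block, so the virgin group then has no array of set 1. In both comparisons with the virgin group most open circles lie left of the filled points; Notum and Nkd1 are the members called between post-lactation and lactation with the block.

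No Wnt ligand was called in any comparison by either fit. Of the 10, 9 were higher after weaning than in lactation, with differences from -0.33 for Wnt4 to 0.59 for Wnt1 and a median of 0.07. Between post-lactation and virgin the largest difference was 0.67, for Wnt1. It was 0.14 without virgin 1 and 0.51 without it in the blocked fit. Wnt10b, a ligand that promotes bone formation, measured 4.78, 5.16 and 5.27 in virgin 1 to 3, 5.37, 5.16 and 5.06 in lactation 1 to 3, and 5.55, 5.49 and 5.31 in post-lactation 1 to 3. All post-lactation values lay above all virgin values but overlapped those of lactation. The mean was 1.30-fold higher after weaning than in virgin mice, a log2 difference of 0.38 with an SE of 0.21 that was not called (limma, adjusted p = 1; with the block 0.470). Wnt5a, which signals mainly without β-catenin, was dim in every group at 3.68, 4.60 and 5.02 in virgin, 4.47, 4.58 and 4.29 in lactation and 4.99, 4.63 and 4.91 after weaning. Its post-lactation values all exceeded those of lactation, by a mean of 0.40. Wnt16, a ligand known for its role in cortical bone thickness, was dim as well, at 4.07, 4.65 and 4.11 in virgin, 4.11, 4.80 and 4.25 in lactation and 4.48, 4.11 and 4.80 after weaning, with equal values recurring within sets 2 and 3. Wnt1, whose loss weakens bone, ranged from 4.49 in virgin 1 to 7.36 in post-lactation 2. It was higher after weaning than in lactation in all 3 sets, by 0.24, 0.34 and 1.18, with a mean difference of 0.59 (SE 0.56; limma, adjusted p = 1; with the block 0.273). Over all genes 12.8% were higher in all 3 sets in that comparison, and among the ligands 4 of 10 were, namely Wnt1, Wnt5a, Wnt5b and Wnt10b. The intervals were wide beside the differences: the 95% interval for Wnt1 ran from -0.64 to 1.81. A dimmer probe set of Wnt5b differed by -0.22, against the direction of the 0.50 of the one used. Wnt2b, Wnt6 and Wnt11 were dim and moved by at most 0.06 between lactation and post-lactation.

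The R-spondins Rspo2 and Rspo3 had the widest differences of the 39 genes between post-lactation and virgin, and neither was called. Rspo3 measured 4.93, 5.52 and 5.93 in virgin 1 to 3, 6.25, 6.06 and 5.73 in lactation 1 to 3, and 6.99, 6.46 and 7.07 in post-lactation 1 to 3. The post-lactation values lay above every other value, while the virgin and lactation values overlapped. Group means were 5.46 ± 0.50, 6.01 ± 0.26 and 6.84 ± 0.33 (SD, n = 3). Post-lactation exceeded virgin by 1.38 on the log2 scale, 2.60-fold, with a 95% interval of 0.75 to 2.01, but did not pass the test (limma, adjusted p = 0.191; with the block 0.155). The difference was 2.06, 1.55 and 0.53 in sets 1, 2 and 3, and 1.11 without virgin 1 (adjusted p = 0.404). Against lactation the post-lactation mean was 1.78-fold higher, a difference of 0.83 (adjusted p = 0.556; with the block 0.213), with 1.26, 1.02 and 0.21 in the 3 sets. With the block and without post-lactation 2, Rspo3 was called against both groups, at a difference of 1.20 from lactation (adjusted p = 0.0343, where 1.85% of all genes were called) and 1.75 from virgin (adjusted p = 0.0453, where 0.17% were). Leaving any other single array out of the blocked fit gave no call for Rspo3 in either comparison. A second, dim Rspo3 probe set differed by -0.10 and 0.20 in these comparisons.

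Rspo2 varied most among its post-lactation arrays. It measured 4.75, 4.82 and 4.72 in virgin, 5.81, 5.77 and 5.35 in lactation, and 7.67, 5.02 and 6.21 after weaning. The virgin values were dim and close together, and all lay below every lactation and post-lactation value. The lactation mean was at least 1.71-fold above virgin, with a log2 difference of 0.88 against the measured mean (SE 0.50; limma, adjusted p = 1; with the block 0.791), and 0.60, 0.96 and 1.09 in the 3 sets. It was the only member whose groups did not overlap between lactation and virgin, where 2.06% of all genes were higher without overlap. The post-lactation mean was at least 2.70-fold above virgin, by 1.54 (adjusted p = 1; with the block 0.535), and the 3 sets gave 2.92, 1.39 and 0.30. Against lactation the sets disagreed in direction, at 2.32, 0.44 and -0.79. The other Rspo2 probe set, also dim, differed by -0.04, -0.18 and -0.21 in the 3 comparisons, so only 1 of the 2 probe sets measured gave higher values than in virgin. Adipocyte markers resembled Rspo2 only in part. The mean of the 2 measured of 4, Adipoq and Fabp4, stood at 6.38 to 6.61 above the array median in virgin. It was 6.02 to 6.49 in lactation and 6.45 to 7.62 after weaning. Post-lactation 1 was highest in both the list and Rspo2. Between lactation and virgin, where Rspo2 was higher, 0 of the 2 adipocyte genes were higher. The 5 endothelial markers had their highest mean in the same array, 3.64, against 2.84 to 3.11 in the other 8. The megakaryocyte and T lymphocyte lists were highest in that array as well. Their part in the R-spondin values was not tested. Rspo1 was dim throughout, with means of 3.45, 3.44 and 3.56.

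The 9 frizzled receptors, which bind Wnt proteins at the cell surface, were not called in any comparison by either fit. Their differences between post-lactation and lactation ran from -0.25 for Fzd8 to 0.32 for Fzd3, with 5 higher and 4 lower. Between lactation and virgin 7 of the 9 were higher with all arrays, at -0.08 to 0.29, and 0 of 9 without virgin 1, at -0.84 to -0.01, or -0.59 to -0.02 with the block. Fzd3 shows the size of this shift: it measured 3.85, 6.86 and 7.21 in virgin, 6.37, 6.28 and 5.93 in lactation and 5.78, 7.17 and 6.58 after weaning. Its lactation minus virgin difference was 0.22 with virgin 1 and -0.84 without it, or -0.59 with the block. Fzd6 likewise read 4.33 in virgin 1 against 6.80 and 6.77 in virgin 2 and 3, and its difference turned from 0.29 to -0.53, or to -0.17 with the block. Fzd9, which is needed for normal bone formation by osteoblasts, measured 4.56, 5.42 and 5.18 in virgin, 5.18, 5.42 and 4.86 in lactation and 4.80, 5.18 and 5.11 after weaning, and its groups overlapped in every comparison.

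The co-receptors were likewise uncalled. Lrp4, which anchors sclerostin, measured 7.14, 8.43 and 8.59 in virgin, 7.86, 8.32 and 7.83 in lactation and 7.62, 7.90 and 8.31 after weaning. The means lay within 0.11 of each other, and the lactation minus virgin difference was -0.51 once virgin 1 was left out, or -0.38 with the block, again uncalled. Lrp6, which carries the canonical signal with Lrp5, varied little outside virgin 1: 6.38, 6.83 and 7.14 in virgin, 6.88, 6.83 and 6.78 in lactation and 6.80, 6.93 and 6.83 after weaning. Its difference between post-lactation and lactation was 0.02, with a 95% interval of -0.46 to 0.50. Lrp5, the co-receptor whose variants alter bone mass, was dim in every group at 3.92, 5.06 and 4.20 in virgin, 4.20, 5.02 and 4.27 in lactation and 4.47, 4.20 and 5.02 after weaning, where the values followed the array set more than the group. Ror2, a receptor for Wnt5a, was dim and tied in all 6 pairs of sets 2 and 3.

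Among the negative regulators Notum fell after weaning when the array set was taken into account. Notum, measured by a single probe set, stood at 6.71, 6.92 and 6.36 in virgin 1 to 3, 6.78, 7.78 and 7.38 in lactation 1 to 3, and 6.34, 6.36 and 6.96 in post-lactation 1 to 3. Lactation 2 and 3 were the highest of the 9 arrays, but lactation 1 lay inside the range of the other groups. Means were 6.66 ± 0.28, 7.31 ± 0.50 and 6.55 ± 0.35 (SD, n = 3). Post-lactation was 1.69-fold lower than lactation, a difference of -0.76 that was lower in all 3 sets, by -1.04, -0.82 and -0.42; 16.1% of all genes were lower in all 3 sets. The fit without a block did not call it (SE 0.29; limma, adjusted p = 0.725), and the fit with the array set did (SE 0.13; adjusted p = 0.0370), where 2.99% of all genes were called lower. The call was lost when any of 8 of the 9 arrays was left out of the blocked fit, with adjusted p up to 0.207 without lactation 3. It held without lactation 1 (adjusted p = 0.0473, where 1.34% of all genes were called), and the difference stayed negative throughout, between -0.90 and -0.62. Without virgin 1 its adjusted p was 0.0543 and without array set 1 it was 0.306. Notum in lactation exceeded virgin by 0.65, with 0.67, 0.86 and 0.42 in the 3 sets, which was not called (adjusted p = 1; with the block 0.198), and post-lactation differed from virgin by -0.11. Osteoclast markers had a similar course: the mean of the 7 genes lay 2.37 to 2.57 above the array median in virgin, 3.39 to 3.97 in lactation and 2.29 to 3.04 after weaning, with 7 of 7 higher in lactation than in virgin, 0 of 7 higher after weaning than in lactation, and Calcr dim. The 6 measured erythroid markers of 7 stood at 3.56 to 4.66, 5.16 to 5.62 and -0.17 to 0.86. Their part in the Notum values was not tested.

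Nkd1 and Nkd2, the naked cuticle proteins that bind Dishevelled and dampen Wnt signalling, were both higher after weaning than in lactation in all 3 sets. Nkd1 measured 3.66, 5.22 and 4.66 in virgin, 4.36, 4.85 and 3.42 in lactation and 3.99, 4.89 and 5.22 after weaning. These values overlapped fully between groups and were spread by array set, with means of 4.51 ± 0.79, 4.21 ± 0.72 and 4.70 ± 0.64 (SD, n = 3), all dim, so no fold is given. Within sets 1, 2 and 3 post-lactation exceeded lactation by 0.56, 0.37 and 0.53. The mean difference of 0.49 was not called without the block (SE 0.46; limma, adjusted p = 1). Nkd1 rose by the blocked fit (SE 0.08; adjusted p = 0.0305), where 0.539% of all genes were called higher. The call held without virgin 1 (adjusted p = 0.0286, where 5.1% of all genes were called) and was lost without any other single array, with adjusted p up to 0.160 without lactation 2, and it was 0.207 without set 1. It rested on 1 probe set, since the other 3 for Nkd1 differed by 0.00, 0.05 and 0.15. Nkd2 measured 5.15, 5.71 and 5.37 in virgin, 5.37, 5.71 and 4.82 in lactation and 5.77, 5.73 and 6.06 after weaning. Its post-lactation values lay above all others. The 1.47-fold difference from lactation, 0.56 on the log2 scale with a 95% interval of -0.02 to 1.13, was not called (adjusted p = 1; with the block 0.0846), nor was the difference of 0.45 from virgin (adjusted p = 1; with the block 0.368). The other 3 Nkd2 probe sets differed by 0.37, 0.72 and 0.07 between post-lactation and lactation.

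Axin2, a general feedback target of β-catenin signalling, was dim at 3.88, 4.44 and 3.70 in virgin, 3.69, 4.44 and 3.78 in lactation and 4.15, 3.67 and 4.44 after weaning. Its means differed by at most 0.12, and the 3 values near 4.44 were the 3 arrays of set 2. Rnf43 was dim with ties in all pairs of sets 2 and 3, and Znrf3 differed by at most 0.09 between groups.

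**Figure D4:**
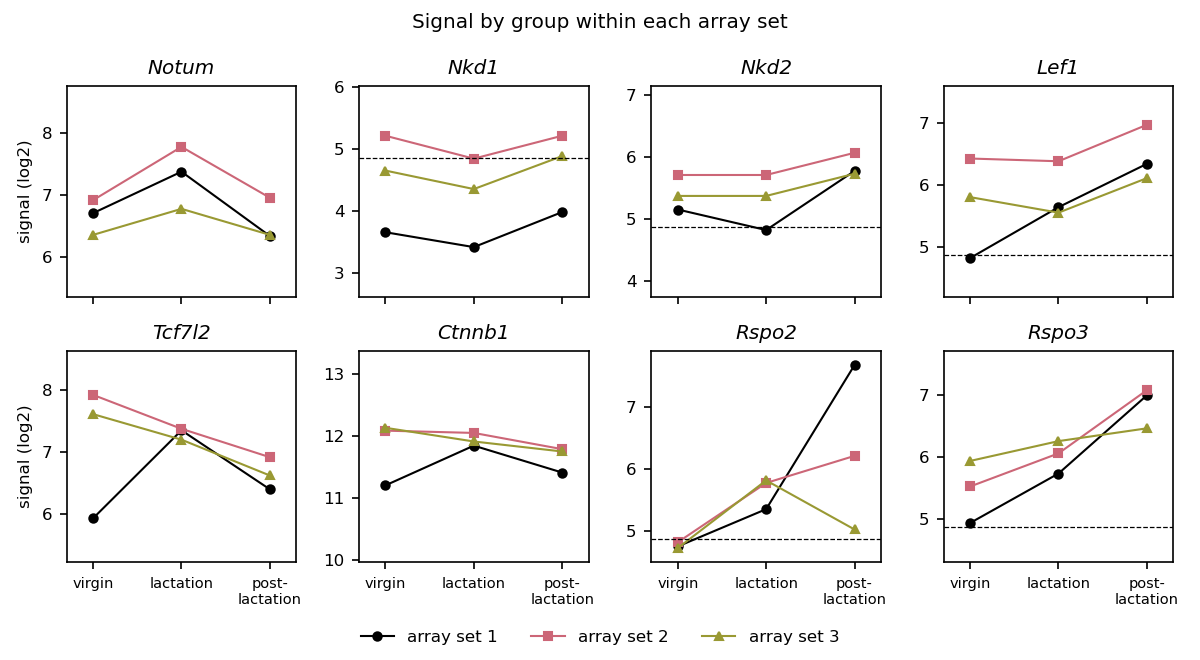
Log2 signal of 8 genes by group, with 1 line for each array set joining its virgin, lactation and post-lactation arrays; the dashed line is the dim level of 4.87 and every panel spans the same range. Notum is lower in post-lactation than in lactation in all 3 sets, Nkd1, Nkd2, Lef1 and Rspo3 are higher in all 3, and Rspo2 differs in opposite directions in sets 1 and 3.

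β-catenin itself was lower after weaning without being called. Ctnnb1 measured 11.20, 12.09 and 12.13 in virgin, 11.91, 12.05 and 11.84 in lactation and 11.41, 11.75 and 11.79 after weaning. Every post-lactation value lay below every lactation value. The 1.22-fold difference, -0.29 on the log2 scale, had a 95% interval of -0.86 to 0.28 (limma, adjusted p = 1; with the block 0.486), and was -0.43, -0.26 and -0.16 in the 3 sets. Its other probe sets differed by -0.57 and -0.02. The only other member that was lower after weaning without overlap was Tcf7l2. In the destruction complex the brightest probe sets of Gsk3b, Apc and Axin1 differed by between -0.06 and 0.01 between post-lactation and lactation. Probe sets disagreed for Gsk3b, the kinase that marks β-catenin: the other 5 differed by 0.49, 0.23, 0.56, 0.00 and -0.18.

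The TCF/LEF factors Lef1 and Tcf7l2 differed in opposite directions after weaning. Lef1, a factor also strongly expressed in developing lymphocytes, measured 4.82, 6.42 and 5.80 in virgin, 5.55, 6.38 and 5.64 in lactation and 6.33, 6.10 and 6.96 after weaning. The groups overlapped, since lactation 2 exceeded post-lactation 1 and 2. Means were 5.68 ± 0.81, 5.85 ± 0.46 and 6.47 ± 0.45 (SD, n = 3). Post-lactation exceeded lactation 1.53-fold, by 0.61 (SE 0.40; limma, adjusted p = 1; with the block 0.296), and the 3 sets agreed at 0.70, 0.59 and 0.56. With the block and without virgin 1 the same difference was called (adjusted p = 0.0191), in a fit that called 5.1% of all genes. No other single array left out gave a call for Lef1, with adjusted p up to 0.715 without post-lactation 1. Against virgin the difference was 0.79 with all arrays and 0.36 without virgin 1, or 0.45 with the block. A second, dim Lef1 probe set gave 0.56 between post-lactation and lactation.

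B lymphocyte markers moved beside Lef1. The mean of the 6 measured of 7 lay 1.27 to 3.11 above the array median in virgin, 2.07 to 2.95 in lactation and 3.31 to 4.05 after weaning, and 6 of 6 were higher after weaning than in either other group. Virgin 1 was the lowest array both for that list, at 1.27, and for Lef1, at 0.50 above its median. The T lymphocyte list, with 3 of 5 measured genes dim, spanned 0.68 to 1.06 over the 9 arrays. Their part in the Lef1 difference was not tested.

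Tcf7l2 measured 5.93, 7.92 and 7.61 in virgin, 7.20, 7.37 and 7.35 in lactation and 6.40, 6.62 and 6.91 after weaning. The lactation values lay close together and all above the post-lactation values, while virgin 1 lay below everything and virgin 2 and 3 above. Means were 7.15 ± 1.07, 7.30 ± 0.10 and 6.64 ± 0.26 (SD, n = 3). Post-lactation was 1.58-fold lower than lactation, by -0.66 (SE 0.42; limma, adjusted p = 1; with the block 0.489), with -0.95, -0.46 and -0.58 in the 3 sets. With the block and without virgin 1 Tcf7l2 was called lower (limma, adjusted p = 0.0430), in a fit that called 5.1% of all genes. Leaving out any other single array gave no call, with adjusted p up to 0.919 without lactation 3. Against virgin it differed by -0.51 with all arrays and -1.12 without virgin 1 (adjusted p = 0.212), or -1.07 with the block (adjusted p = 0.103). The other 3 probe sets gave -0.31, -0.30 and -0.04 between post-lactation and lactation. Tcf7l1, mostly a repressor of the pathway, differed by 0.07 there.

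**Figure D5:**
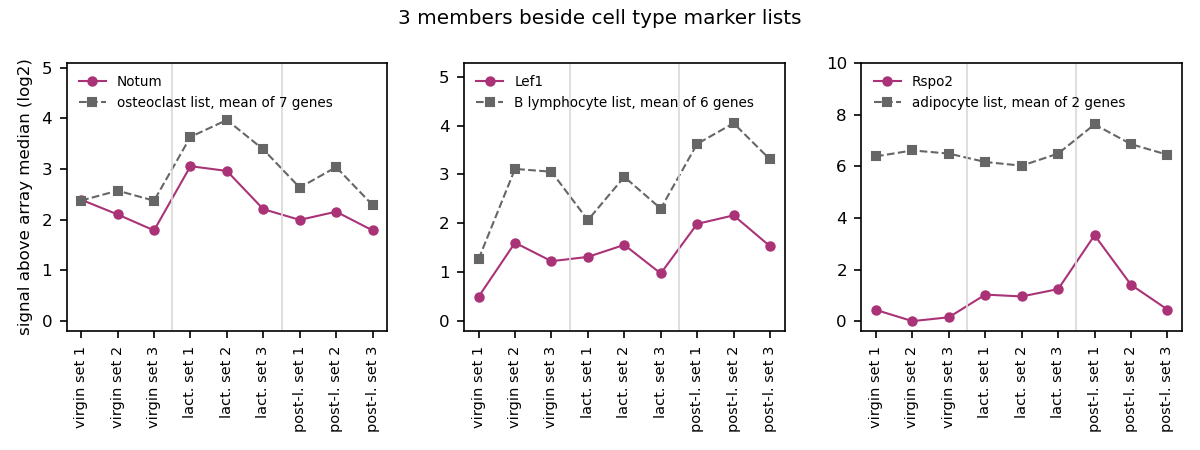
Log2 signal above the array's own median for Notum, Lef1 and Rspo2 (circles) and the mean of a cell type marker list (squares), for the 9 arrays in order of group and set. The osteoclast list is highest in the 3 lactation arrays and Notum in 2 of them; the B lymphocyte list and Lef1 are lowest in virgin 1; the adipocyte list and Rspo2 are highest in post-lactation 1.

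Further Wnt genes outside the 40 were read from 3 lists. Dkk1, Dkk2 and Wif1 are in both the target gene list and the inhibitor list, so these lists overlap. Of 66 other pathway genes, such as the LGR receptors for R-spondins, the Dishevelled proteins and the TLE co-repressors, 64 were measured; 36, 41 and 40 were higher in lactation versus virgin, post-lactation versus lactation and post-lactation versus virgin, with median differences of 0.01, 0.05 and 0.05, and none was called by either fit. Among 20 target genes of the pathway outside the members, 13, 13 and 14 were higher, with medians of 0.16, 0.04 and 0.13, and none was called. Of 12 secreted inhibitors, 8, 9 and 9 were higher, with medians of 0.09, 0.02 and 0.11, and 1 was called. Without virgin 1 the medians of these 3 lists against virgin were all negative, at -0.12 and -0.10, -0.22 and -0.16, and -0.16 and -0.15 for lactation and post-lactation in turn; with the block they were -0.02 and 0.02, -0.03 and 0.04, and -0.06 and -0.03. Sfrp2, a secreted frizzled-related protein that binds Wnt proteins, measured 5.14, 4.75 and 5.34 in virgin, 4.37, 4.23 and 4.03 in lactation and 6.67, 6.20 and 6.27 after weaning. Its lactation mean of 4.21 was dim, and Sfrp2 rose after weaning by at least 2.85-fold over the dim level, with a measured log2 difference of 2.17 (limma, adjusted p = 0.000706; with the block 0.00274). Sost, Dkk1 and Wif1, the other inhibitors known from osteocytes, were not called in any comparison.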

How the data were processed

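Transcripts were measured on Affymetrix mouse arrays, 3 in each of 3 groups. The deposited values are log2 signals of 45101 probe sets made with RMA by the authors, per the submitters' processing notes; the version used is not given in the sources used here. Exactly equal values between arrays gave the array sets, and what made the values equal was not tested. Of the probe sets, 34958 were annotated to 1 gene, 932 to several and 9211 to none; per gene the probe set with the highest mean was kept. The group comparison used lmFit and eBayes of limma 3.58.1, under R 4.3.3, on group means of all 9 arrays and was Benjamini-Hochberg adjusted over 18194 genes, with calls under 0.05; the procedure was tested on simulated data. Alternatives were the array set or replicate number as a block, each array left out, quantile normalization, median centring, a filter on dim genes, the mean of a gene's probe sets and an intensity trend. Replicate numbers of the titles did not pair the arrays. The blocked fits without 1 array or without array set 1 were added after the data were seen. The members and all lists were chosen with earlier results of these data known. Values are printed in every array for members called by the fit with or without the array set block, members above the dim level whose groups did not overlap, and a fixed list of Wnt genes. Cell types were read from lists of marker genes. The number of arrays limits the precision.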

Additional observations from a re-analysis of the deposited data

How the results depend on the processing

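No called result changed sign, but the median member difference did. With the array set as a block the genes called were 4 for lactation versus virgin, 642 for post-lactation versus lactation and 82 for post-lactation versus virgin, and the Wnt members called were 2 between post-lactation and lactation. Quantile normalization called 1 and 200 genes in the first and second of these comparisons, and median centring called 1 in the first. Leaving out each array in turn gave 76 to 138 called genes for post-lactation versus lactation and 13 to 34 for post-lactation versus virgin. With the block as well, these were 195 to 927 and 0 to 42, with 0 to 3 and 0 to 1 members called; without array set 1 no gene was called. The median member difference ran from -0.17 to 0.23 for lactation versus virgin (-0.07 to 0.18 with the block), from -0.067 to 0.21 (0.00 to 0.11) for post-lactation versus lactation and from -0.11 to 0.21 (0.03 to 0.19) for post-lactation versus virgin when 1 array was left out. Within set 1 it was 0.35 for lactation versus virgin and 0.42 for post-lactation versus virgin, and within sets 2 and 3 it was 0.00 for post-lactation versus lactation. The cause was not tested, except that leaving out arrays leaves fewer samples. The replicate number as a block called 0, 118 and 33 genes and 0 members; deviations of same-numbered arrays correlated at -0.413 to 0.67 over 9 pairs, and 1 array correlated best with its own number. Signal limits the 12 dim members, of which many values are tied.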
